A study of Mus musculus with 12 samples.

Results

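The heat shock chaperones are protein folding helpers of the HSP70, HSP110, HSP90 and HSP40 families, with their chaperonin partners, and many of them are stress-inducible. The set was 10 named genes, chosen by symbol: Hspa1a, Hspa1b, Hspa8, Hsph1, Hsp90aa1, Hsp90ab1, Hspd1, Hspe1, Dnaja1 and Dnajb1. A gene was measured where a row of the array table carried its symbol and no other. This found 5 of the 10 (Hspa1a, Hsph1, Hsp90aa1, Dnaja1 and Dnajb1, with 1 row each) among 14807 genes with such a row. Hspa1b, Hspa8, Hsp90ab1, Hspd1 and Hspe1 had no such row and were not analysed here.

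HSP70 binds exposed hydrophobic stretches of unfolded proteins and releases them in a cycle driven by ATP. J-domain proteins (HSP40s) bring clients to HSP70 and speed its ATP hydrolysis, and HSP110 and other exchange factors then remove the ADP. Heat shock factor 1 (HSF1) is held inactive by chaperones in unstressed cells, and under protein stress it forms trimers that bind inverted GAA repeats, the heat shock elements, in the promoters of these genes. In dendritic cells HSP70 and HSP90 are also known to bind peptides and to take part in antigen handling.

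Transcript levels came from 12 Affymetrix whole-transcript arrays, 1 per sample, of CD8α+-like dendritic cells, the culture counterpart of the cross-presenting type 1 conventional dendritic cell. All came from C57BL/6 bone marrow grown for 10 days with Flt3 ligand (FLT3L) at 100 ng/ml and sorted as CD24-high, CD11b-low and B220-negative cells. The 4 groups of 3 arrays were wild-type (WT) cells untreated at 0 h, WT cells after 5 h with dead cells, and the same pair for cells homozygous for a gfp allele of Clec9a (Clec9a gfp/gfp, labelled KO). Clec9a encodes DNGR-1, a receptor for actin filaments exposed on dead cells. UVC at a dose of 240 mJ/cm2, followed by 24 h of culture, had been used to kill the added cells. Because the untreated cells were taken at 0 h, an effect of dead cells and an effect of 5 h in culture cannot be told apart. RNA carried in by dead cells that stayed attached was not tested. The labels give no age and do not say whether replicates were separate cultures or animals, so each p-value reflects just the variation among these 12 samples, which may be technical.

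Intensities are linear and are compared between groups within a row, never between rows. Median intensity lay between 93.6 and 101 on the untreated arrays and between 77.9 and 85.9 on the arrays with dead cells. Upper quartiles were 396 to 437 untreated and 231 to 259 with dead cells, so the bright part of the scale was lower on every array with dead cells. Log2 values of arrays in the same group correlated at r = 0.972 to 0.987 across rows, which are not independent replicates. Clec9a, the targeted gene, read 2625 ± 38.3 (SD, n = 3) in untreated WT cells and 2.68 ± 2.32 in untreated Clec9a gfp/gfp cells. With dead cells it read 1446 ± 65.8 and 1.99 ± 1.78, and all 12 arrays matched their genotype label. Of 18 genes that mark the cDC1 lineage, 13 were measured and all 13 were above 16 on average in both WT groups. For the Clec9a gfp/gfp groups the same was true of all but Clec9a. Passing 16 does not set this lineage apart, since all 14 stromal markers were also above 16 on average in every group.

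Promoter sequences were matched for 4 of the 5 measured genes, all but Hsp90aa1. They are printed because heat shock elements in them are the known contact points of HSF1. Each line gives the 250 bases before a transcript start, 5′ to 3′ on the strand of the gene, from RefSeq on GRCm38.p6. Capitals mark a pair of facing heat shock units, spelled GAANNTTC or TTCNNGAA, each of which reads the same on both strands. The windows are chr17:34972157-34972406 (minus strand) for Hspa1a, chr5:149636316-149636565 (minus) for Hsph1, chr4:40722218-40722467 (plus) for Dnaja1 and chr8:83607925-83608174 (plus) for Dnajb1.
Hspa1a: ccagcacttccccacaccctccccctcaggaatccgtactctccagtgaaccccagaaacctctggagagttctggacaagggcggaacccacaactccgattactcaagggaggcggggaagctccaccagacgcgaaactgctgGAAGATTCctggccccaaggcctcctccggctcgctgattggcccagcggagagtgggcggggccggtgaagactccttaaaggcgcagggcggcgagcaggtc
Hsph1: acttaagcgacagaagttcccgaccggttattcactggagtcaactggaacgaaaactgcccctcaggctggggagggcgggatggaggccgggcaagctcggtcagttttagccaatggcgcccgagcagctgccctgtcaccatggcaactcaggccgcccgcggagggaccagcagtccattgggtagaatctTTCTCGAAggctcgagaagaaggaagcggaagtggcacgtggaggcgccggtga
Dnaja1: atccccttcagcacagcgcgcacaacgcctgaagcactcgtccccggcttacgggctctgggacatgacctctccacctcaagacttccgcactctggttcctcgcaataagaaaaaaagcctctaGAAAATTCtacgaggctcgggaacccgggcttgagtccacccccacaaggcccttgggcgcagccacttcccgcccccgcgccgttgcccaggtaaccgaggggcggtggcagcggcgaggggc
Dnajb1: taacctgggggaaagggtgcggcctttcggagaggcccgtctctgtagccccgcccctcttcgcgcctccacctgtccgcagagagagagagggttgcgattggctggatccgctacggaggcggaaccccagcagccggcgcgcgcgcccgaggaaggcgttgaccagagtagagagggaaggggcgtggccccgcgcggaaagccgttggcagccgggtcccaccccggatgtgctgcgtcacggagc

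The Hspa1a window held GAAGATTC, beginning 104 bases before the start. The Hsph1 window held TTCTCGAA, beginning 54 bases before the start, and the same copy lay 33 bases before another annotated start of the gene. In Dnaja1 the motif was GAAAATTC, 124 bases before the first of its annotated starts, and the windows of its other starts held none. Neither annotated Dnajb1 window held either spelling, which says only that these letters are absent there. The windows of Bag3 and Hsf2, whose rises are given below, were also searched and held neither spelling. Among members without a measured row besides Hspa1b, the Hspe1 window and an Hspd1 window held such pairs, while another Hspd1 window held none. Of 32851 mouse promoter windows of the same length, 6.69% held GAANNTTC, 7.17% held TTCNNGAA and 12.8% held either. The sequence CCAAT, searched on both strands and present in 33.8% of windows, occurred in the printed windows of Hspa1a, Hsph1 and Dnajb1. TATAAA, present in 12.4% of windows on either strand, occurred in none of the 4. A match is a description of letters and was not tested as a binding site.

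**Figure D1:**
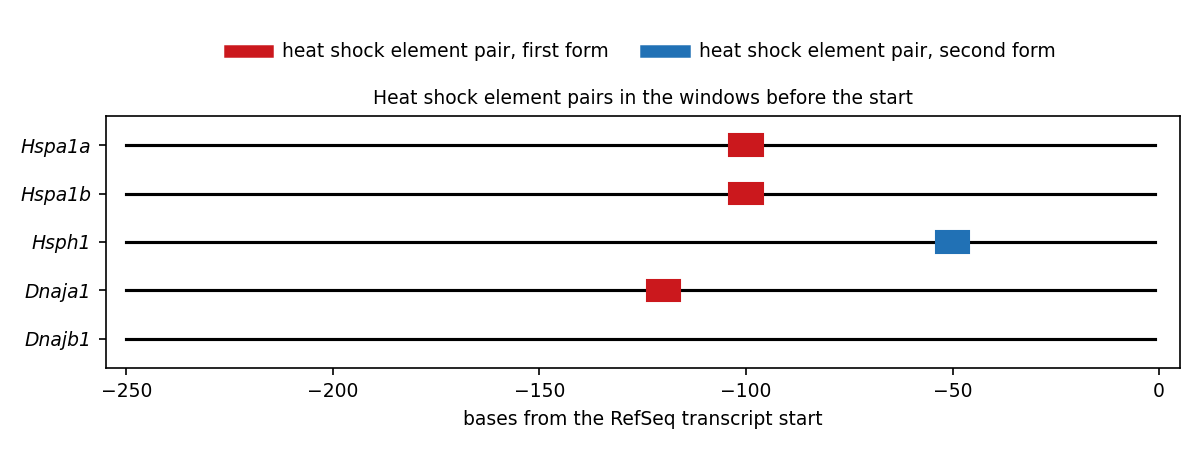
Position of heat shock element pairs (boxes) in the 250 bases before the RefSeq transcript start (x axis, bases) of 5 chaperone genes. Hspa1a, Hspa1b, Hsph1 and Dnaja1 each hold a pair within 124 bases of the start shown, and Dnajb1 holds none of either spelling. The windows of the other annotated Dnaja1 starts, not drawn, hold none.

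Hspa1b, the neighbouring copy of Hspa1a, has a window at chr17:34959239-34959488 (minus strand) that is identical to that of Hspa1a at 247 of 250 positions (98.8%). The substitutions from Hspa1a to Hspa1b, counted from 1 at the 5′ end of the window, are C44T, T47C and T249G, and the heat shock element pair lies outside them. The 2 genes encode near-identical HSP70 proteins, so the row named Hspa1a may also read Hspa1b transcripts, and its values are uncertain as to which copy they come from.

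With dead cells, 4 of the 5 measured chaperones rose in cells of both genotypes: Hspa1a by far the most, then Hsph1, Dnajb1 and Dnaja1 by 1.24 to 1.84 on the log2 scale. The row named Hsp90aa1 read near the bottom of the scale and passed no test, and whether it measures the gene is unclear. A gene was called at a limma adjusted p (Benjamini-Hochberg over all 23238 rows) under 0.05 on log2(intensity + 16). By that rule 14.5% of all rows were called higher and 31% lower in WT cells. The shares in Clec9a gfp/gfp cells were 16.6% and 32.1%. The members' 4 of 5 in each genotype stands beside those shares. No member differed between genotypes at that threshold, in either treatment or in its response.

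Hspa1a encodes the inducible cytosolic HSP70, which unstressed cells hold at a low level. In WT cells its intensity was 54.7, 37.4 and 50.9 on the untreated arrays and 2138, 1870 and 1969 with dead cells. The Clec9a gfp/gfp arrays read 40.0, 36.0 and 29.8 untreated and 1886, 2142 and 2471 with dead cells. Every array with dead cells was far above every untreated array, and the genotypes overlapped within each treatment. The group means were 47.7 ± 9.12 and 1992 ± 135 in WT (SD, n = 3), a ratio of 41.8, and 35.3 ± 5.15 and 2166 ± 293 in Clec9a gfp/gfp, a ratio of 61.4. The log2 change was 4.99 ± 0.14 (SE) in WT (limma adjusted p = 2.57e-09) and 5.41 ± 0.14 in Clec9a gfp/gfp cells (adjusted p = 2.05e-09). It was the 15th highest change of the 14807 genes in WT and the 6th highest in Clec9a gfp/gfp. The pseudocount sets the size of so large a change: over all alternatives run it ranged from 4.20 to 5.40 in WT and from 4.48 to 5.94 in Clec9a gfp/gfp cells.

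Hsph1 encodes HSP110, a large HSP70 relative that acts as a nucleotide exchange factor and holds unfolded proteins. Its intensity in WT cells was 485, 465 and 471 untreated and 1924, 1440 and 1492 with dead cells. On Clec9a gfp/gfp arrays the intensity was 514, 446 and 514 untreated and 1598, 1589 and 2265 with dead cells. The untreated arrays formed a narrow band below all arrays with dead cells, and in each group with dead cells a single array stood above the other 2. Means rose from 474 ± 10.0 to 1619 ± 266 in WT and from 491 ± 38.8 to 1817 ± 388 in Clec9a gfp/gfp (SD, n = 3). These are ratios of 3.42 and 3.70. On the log2 scale the Hsph1 rise was 1.73 ± 0.15 (limma adjusted p = 2.55e-06) for WT and 1.84 ± 0.15 (1.45e-06) for Clec9a gfp/gfp.

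Dnajb1 encodes HSP40, the J-domain protein that pairs with HSP70 in dissolving protein aggregates. In WT cells its intensity was 589, 554 and 600.0 untreated and 1743, 1399 and 1152 with dead cells. The corresponding Clec9a gfp/gfp intensities were 561, 466 and 633 untreated and 1550, 1530 and 1902 with dead cells. All arrays with dead cells were above all untreated arrays, and the 3 WT arrays with dead cells were more spread than the untreated ones. Means rose from 581 ± 24.3 to 1431 ± 297 in WT, a ratio of 2.46, and from 553 ± 83.8 to 1661 ± 209 in Clec9a gfp/gfp, a ratio of 3.00 (SD, n = 3). The log2 changes were 1.26 ± 0.16 (limma adjusted p = 4.87e-05) and 1.56 ± 0.16 (8.03e-06).

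Dnaja1 encodes a J-domain protein of another subfamily, which carries a farnesyl anchor and delivers clients to HSC70 and HSP70. Its row was dimmer, at 74.3, 82.4 and 101 in untreated WT cells and 256, 239 and 234 with dead cells. Clec9a gfp/gfp cells gave 87.5, 92.8 and 72.4 untreated and 208, 332 and 154 with dead cells. The groups did not overlap between treatments, and the Clec9a gfp/gfp arrays with dead cells were the most scattered, with a coefficient of variation of 39.5%. Means rose from 86.0 ± 13.9 to 243 ± 11.5 in WT and from 84.2 ± 10.6 to 231 ± 91.4 in Clec9a gfp/gfp (SD, n = 3). The log2 changes were 1.35 ± 0.22 (limma adjusted p = 0.00031) and 1.24 ± 0.22 (0.000559).

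Hsp90aa1 encodes the inducible cytosolic HSP90, a dimeric chaperone of kinases and steroid receptors. The row named for it read 32.1, 11.0 and 0.0434 in untreated WT cells and 1.28, 18.3 and 0.00917 with dead cells. Clec9a gfp/gfp arrays gave 20.4, 53.9 and 0.00518 untreated and 71.1, 68.1 and 18.9 with dead cells. Of the 4 groups, 3 held an array near 0, and the highest of the 12 readings was 71.1. Whether this row measures the Hsp90aa1 transcript is unclear, so it is not read as a low or unchanged level of the gene. The log2 changes were -0.38 ± 0.59 in WT (limma adjusted p = 0.647) and 0.88 ± 0.59 in Clec9a gfp/gfp cells (0.248). With dead cells the Clec9a gfp/gfp arrays were all above the WT arrays, by 1.58 on the log2 scale with a 95% interval from 0.29 to 2.88. That difference had an unadjusted p of 0.0214 and an adjusted p of 0.815 in limma.

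**Figure D2:**
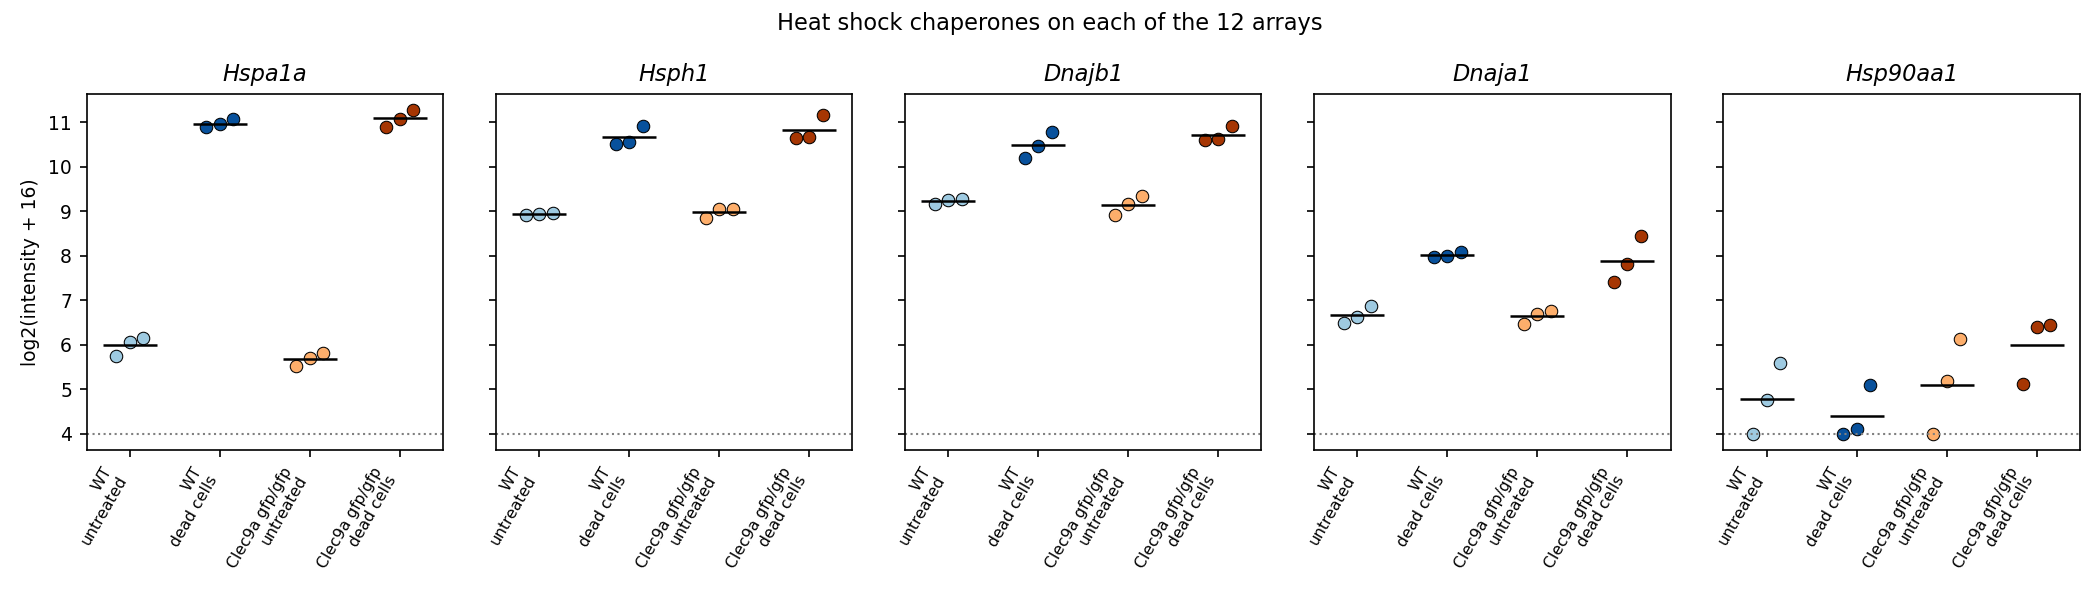
log2(intensity + 16) of the 5 measured chaperones (panels) on each array (points, 3 per group, sorted by value), with the group mean as a bar. The dotted line marks an intensity of 0. Hspa1a, Hsph1, Dnajb1 and Dnaja1 are higher with dead cells on all arrays of both genotypes, and Hsp90aa1 is scattered from the dotted line up to 6.44.

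Some arrays were high for several of the 4 rising genes. WT replicate 1 with dead cells was the highest of its group for Hspa1a, Hsph1, Dnajb1 and Dnaja1. Replicate 3 of the Clec9a gfp/gfp cells with dead cells was the highest of its group for Hspa1a, Hsph1 and Dnajb1 and the lowest for Dnaja1. Leaving out any single array kept the log2 change of Hsph1 in WT between 1.60 and 1.80 and that of Dnaja1 in Clec9a gfp/gfp cells between 0.97 and 1.48, and it ended no call of the 4 genes.

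The responses of the 2 genotypes were then compared directly, to ask whether the chaperone response differed without DNGR-1. Of all rows 0.0043% were called for a difference in response, and none of the 5 chaperones was. The difference, Clec9a gfp/gfp minus WT on the log2 scale, was 0.42 for Hspa1a (95% interval -0.01 to 0.85, unadjusted p = 0.0548). It was 0.11 for Hsph1 (-0.37 to 0.59), 0.30 for Dnajb1 (-0.20 to 0.81) and -0.11 for Dnaja1 (-0.79 to 0.57). For the noisy Hsp90aa1 row it was 1.26, with an interval from -0.57 to 3.10. All 5 adjusted p-values were 0.999 in limma. For Hsph1, Dnajb1, Dnaja1 and the Hsp90aa1 row these intervals leave room for differences either way. For Hspa1a the interval lay almost wholly above 0, but it is not adjusted for the number of rows tested. A row that names both Hspa1l and Hspa1a, described near the end, had a difference of -0.21 (-0.96 to 0.55). Like responses were therefore not shown.

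Ordered by level, each of the 4 rising genes had both untreated groups at the bottom and both groups with dead cells at the top. Within each pair of neighbours the genotypes did not differ beyond their spread at the threshold used. In untreated cells, where 0.0301% of all rows were called between genotypes, Hspa1a was lower in Clec9a gfp/gfp cells by a log2 difference of -0.31, with an interval from -0.61 to -0.0026 and an unadjusted p of 0.0484. Its adjusted p was 1, and the arrays of the genotypes overlapped. Hsph1, Dnajb1 and Dnaja1 differed by 0.05, -0.08 and -0.02 in untreated cells. With dead cells, where 0.0043% of rows were called, the differences were 0.11 for Hspa1a, 0.16 for Hsph1, 0.23 for Dnajb1 and -0.13 for Dnaja1.

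**Figure D3:**
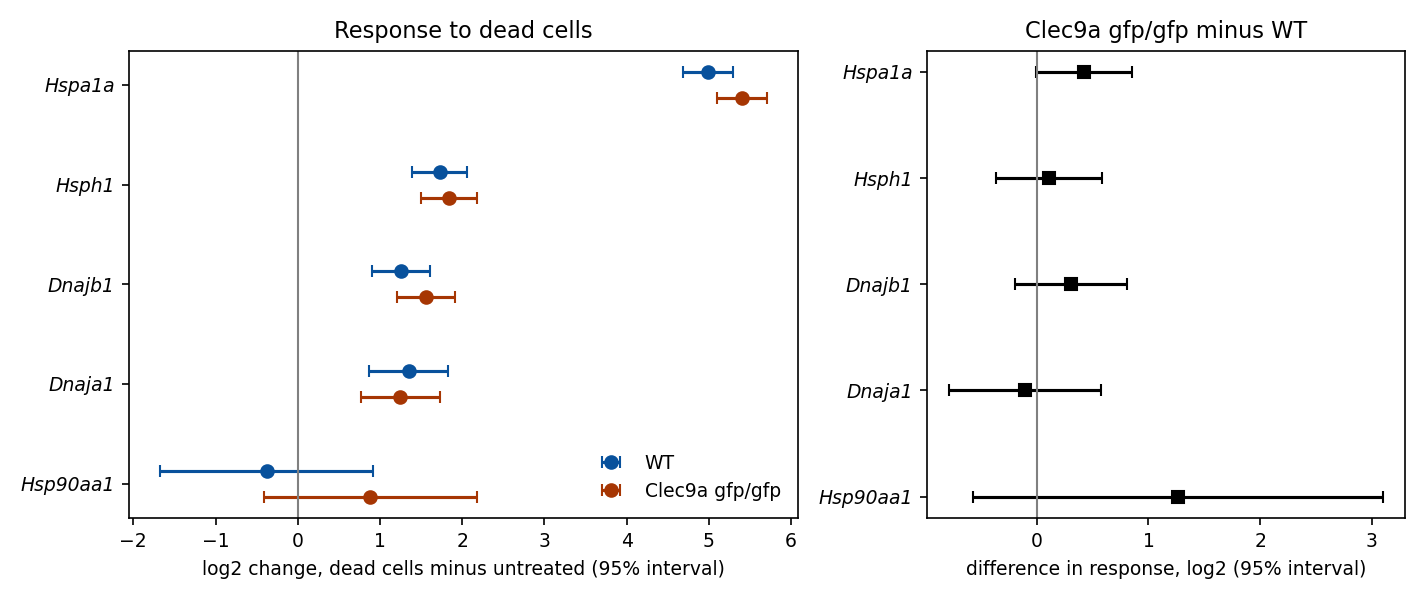
Left, log2 change with dead cells (x axis, dead cells minus untreated) of each measured chaperone in WT and Clec9a gfp/gfp cells; right, the difference between those changes. Points are limma estimates from 12 arrays and bars their 95% intervals. The intervals of Hspa1a, Hsph1, Dnajb1 and Dnaja1 lie above 0 on the left, and all 5 cross 0 on the right.

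The genes whose pattern over the 12 arrays lay nearest to each chaperone were found by the root mean square distance of log2 values centred on untreated WT cells, among 11327 genes. Nearest to Hspa1a were Cmpk2 at 0.29, Oasl2 at 0.33 and Il2ra at 0.38 log2 units. Hsph1 lay nearest to Icosl, Tbc1d1 and Kpna3, each at 0.14. For Dnajb1 they were Ndrg4 at 0.11, Pik3r1 at 0.15 and Itprid2 at 0.15, and for Dnaja1 Npr1 at 0.22, Pfkp at 0.23 and Net1 at 0.23. No gene came closer to the Hsp90aa1 row than Mmp12, at 0.69. The values were not scaled, so the distance depends on the size of the rise, and chaperones with unlike rises are given different neighbours by the measure itself. The distances describe likeness over these arrays only.

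The wider chaperone network held more falls than rises. Over 9 lists of related genes, 106 of 128 genes were measured. In WT cells 15 rose and 58 fell, beside 14.5% of all rows higher and 31% lower, and the median log2 change was -0.52 against -0.04 over all rows. The number that rose was close to the share among all rows. Clec9a gfp/gfp cells had 18 higher and 58 lower, beside 16.6% and 32.1% of all rows, with a median of -0.45 against -0.05. The counts of each list below stand beside these same shares of all rows. Of the 106, 15 rose in both genotypes, 56 fell in both, none was called in opposite directions, and none was called for a difference in response. The 2 responses come from separate arrays, and the share of all rows called in both was not computed. The upper quartile of intensity was lower on every array with dead cells, and its part in these falls was not tested.

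In the HSP70 family beside Hspa1a, 7 of 8 listed genes were measured, with 4 higher and 2 lower in each genotype and median log2 changes of 0.36 in WT and 0.43 in Clec9a gfp/gfp. The risers moved by less than 1 log2 unit: Hspa2, a testis-enriched HSP70, by 0.70 ± 0.08 (SE, limma adjusted p = 1.49e-05) and Hspa5 (BiP), the HSP70 of the endoplasmic reticulum, by 0.46 ± 0.09 (0.00124) in WT. The other two risers, named after their values were seen, were Hspa12a at 0.36 and Hspa12b at 0.60, both divergent HSP70 relatives. Hspa9 (mortalin), the mitochondrial HSP70, fell from 876 ± 58.2 to 270 ± 27.6 in WT and from 958 ± 122 to 275 ± 39.9 in Clec9a gfp/gfp (SD, n = 3). Hspa14, a ribosome-associated HSP70, fell by 0.98 (WT) and 1.01 (Clec9a gfp/gfp) on the log2 scale.

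Among the nucleotide exchange factors, which reset HSP70 as Hsph1 does, 12 of 13 were measured. In WT 1 rose and 9 fell (median log2 change -0.99), beside 14.5% and 31% of all rows. In Clec9a gfp/gfp 2 rose and 7 fell (-0.73), beside 16.6% and 32.1%. The WT riser, named after its values were seen, was Bag3, a co-chaperone of selective autophagy and known HSF1 target, which went from 291 ± 20.8 to 644 ± 71.1. Its log2 change was 1.10 ± 0.11 in WT (limma adjusted p = 8.19e-06) and 1.00 ± 0.11 in Clec9a gfp/gfp (1.66e-05). Hspa4, an HSP110 relative of Hsph1, fell from 1895 ± 81.1 to 624 ± 57.3 in WT, so these relatives moved in opposite directions. Hspa4l, another relative, named after its values were seen, changed by 0.19 in WT (adjusted p = 0.299) and rose by 0.70 in Clec9a gfp/gfp (0.00135), and the difference of 0.51 was not called (adjusted p = 0.999). Bag4 fell by 2.17 and 1.81, Sil1, the exchange factor of BiP, by 1.28 and 1.55, and Grpel1, that of mortalin, by 1.22 and 1.39 on the log2 scale in WT and Clec9a gfp/gfp.

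Of the other J-domain proteins, the family of Dnaja1 and Dnajb1, 34 of 41 were measured, and 3 rose and 18 fell in each genotype. The median log2 changes were -0.59 in WT and -0.47 in Clec9a gfp/gfp. The risers, named after their values were seen, were Dnaja2 (0.72 in WT), Dnajb2 (0.57) and Dnajc10 (0.65), a disulfide reductase of the endoplasmic reticulum. Dnajc9, a histone co-chaperone, fell from 812 ± 14.2 to 90.2 ± 20.9 in WT, a log2 change of -2.98 ± 0.16. Dnajc24 (-2.13), Dnajc2 (-1.88), a ribosome-associated factor, and Dnajc11 (-1.75), a mitochondrial membrane protein, also fell in WT, and all 4 fell in Clec9a gfp/gfp cells.

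HSP90 paralogs and co-chaperones were measured for 18 of 20 genes. In each genotype 2 rose, Sugt1 (0.78 in WT), an HSP90 adaptor, and Unc45a (0.55), a myosin chaperone, both named after their values were seen, and 10 fell. The medians were -0.41 and -0.40. Fkbp4, the FKBP52 immunophilin of steroid receptor complexes, fell from 1007 ± 63.7 to 169 ± 35.1 in WT and from 988 ± 48.0 to 167 ± 22.7 in Clec9a gfp/gfp (SD, n = 3). Ppp5c, a phosphatase bound to HSP90, fell from 1709 ± 152 to 265 ± 27.6 in WT, and Stub1 (CHIP), the ubiquitin ligase of HSP70 and HSP90 clients, fell by 1.77 on the log2 scale. Trap1, the mitochondrial HSP90, fell from 1034 ± 20.9 to 271 ± 20.9 in WT.

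The cytosolic TRiC chaperonin, which folds actin and tubulin, and its partner prefoldin had 11 of 14 genes measured, with 1 higher and 9 lower in each genotype and medians of -0.93 and -0.99. Cct5 fell from 2507 ± 5.76 to 1313 ± 21.5 in WT and from 2638 ± 132 to 1298 ± 35.8 in Clec9a gfp/gfp (SD, n = 3). Cct7 and Cct8 fell by 1.00 each in WT and the prefoldin subunit Pfdn2 by 1.42. The riser was Cct3 (0.69 in WT), named after its value was seen.

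All 17 listed mitochondrial chaperones and proteases were measured, and 1 rose and 13 fell in WT and 1 rose and 14 fell in Clec9a gfp/gfp, with medians of -1.22 and -1.16. Hspa9, Trap1 and Grpel1, given above, were among those that fell. The riser was Htra2, a serine protease of the intermembrane space, from 388 ± 19.3 to 1169 ± 39.8 in WT and from 380 ± 18.5 to 987 ± 95.4 in Clec9a gfp/gfp (SD, n = 3).

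Small heat shock proteins, which hold unfolded proteins without ATP, were measured for 8 of 10 genes. Of these, 1 rose and 1 fell in WT, beside 14.5% and 31% of all rows, and 2 rose and 2 fell in Clec9a gfp/gfp, beside 16.6% and 32.1%. Hspb7 rose by 0.50 ± 0.14 in WT (limma adjusted p = 0.0123), and Cryab (alpha B crystallin) fell by 1.03 ± 0.28 (0.0117), a call lost under quantile normalization (adjusted p = 0.15). Hspb2 and Hspb3 changed by 0.38 (0.0736) and 0.47 (0.124) in WT without passing the test. Both passed under some alternatives: Hspb2 at 0.73 (0.0023) under quantile normalization, at 0.60 (0.00794) after the shift to a common median and at an unchanged 0.38 (0.0231) without Clec9a gfp/gfp untreated replicate 1, and Hspb3 at 0.69 (0.0305) after the shift and at 0.76 (0.0055) without WT dead cells replicate 2. The list medians were 0.00 and 0.12.

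Of the heat shock factors and their binding proteins 4 of 7 were measured, and Hsf1 was not analysed here. Hsf2, a factor that forms mixed trimers with HSF1 on the same elements, rose from 270 ± 16.6 to 1157 ± 60.1 in WT and from 250 ± 50.2 to 1181 ± 22.6 in Clec9a gfp/gfp (SD, n = 3). Its log2 changes were 2.04 ± 0.13 (limma adjusted p = 1.88e-07) and 2.19 ± 0.13. Hsbp1, a small protein that binds HSF1 trimers and damps them, fell by 0.63 (WT) and 0.98 (Clec9a gfp/gfp). Hsf4 changed by 0.10 in WT (0.394) and rose by 0.54 in Clec9a gfp/gfp (0.000313), a difference of 0.44 that was not called (adjusted p = 0.999). The WT value depended on scaling: it was 0.74 (6.72e-06) under quantile normalization and 0.32 (0.00439) after the shift to a common median, both called. Hsf3 changed by -0.04 in WT (0.75). The list held 1 higher and 1 lower in WT (median 0.03) and 2 higher and 1 lower in Clec9a gfp/gfp (0.24).

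Other known targets of HSF1 were measured for 16 of 20 genes, and this list shares genes with those above. In WT 2 rose and 8 fell (median -0.48), and in Clec9a gfp/gfp 3 rose and 8 fell (-0.40). The numbers that rose were close to the shares of all rows, 14.5% in WT and 16.6% in Clec9a gfp/gfp. Sqstm1 (p62), an autophagy receptor also controlled by NRF2, rose from 3444 ± 305 to 13079 ± 831 in WT and from 4103 ± 167 to 12919 ± 964 in Clec9a gfp/gfp (SD, n = 3). Bag3 was the other WT riser. Ahsa1, which activates the HSP90 ATPase, fell by 1.22 (WT) and 1.12 (Clec9a gfp/gfp), and Hspa4 and Fkbp4 fell as given above.

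**Figure D4:**
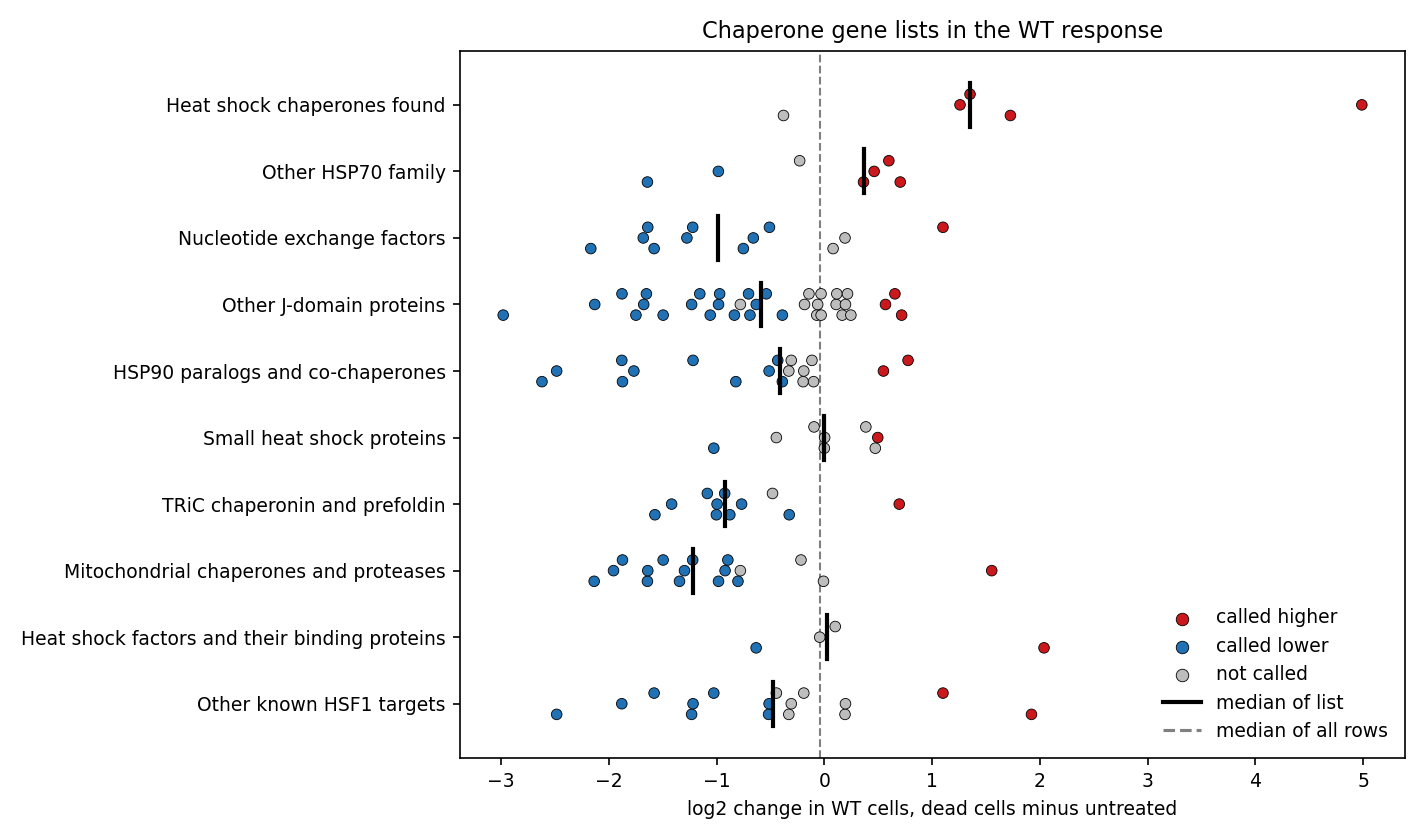
log2 change in WT cells (x axis, dead cells minus untreated) of each measured gene in the set (top) and in 9 chaperone lists (points, coloured by limma call), with list medians as bars and the median of all rows as a dashed line. The set lies mostly to the right, while the exchange factor, J-domain, HSP90, TRiC, mitochondrial and HSF1 target lists have medians below 0.

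**Figure D5:**
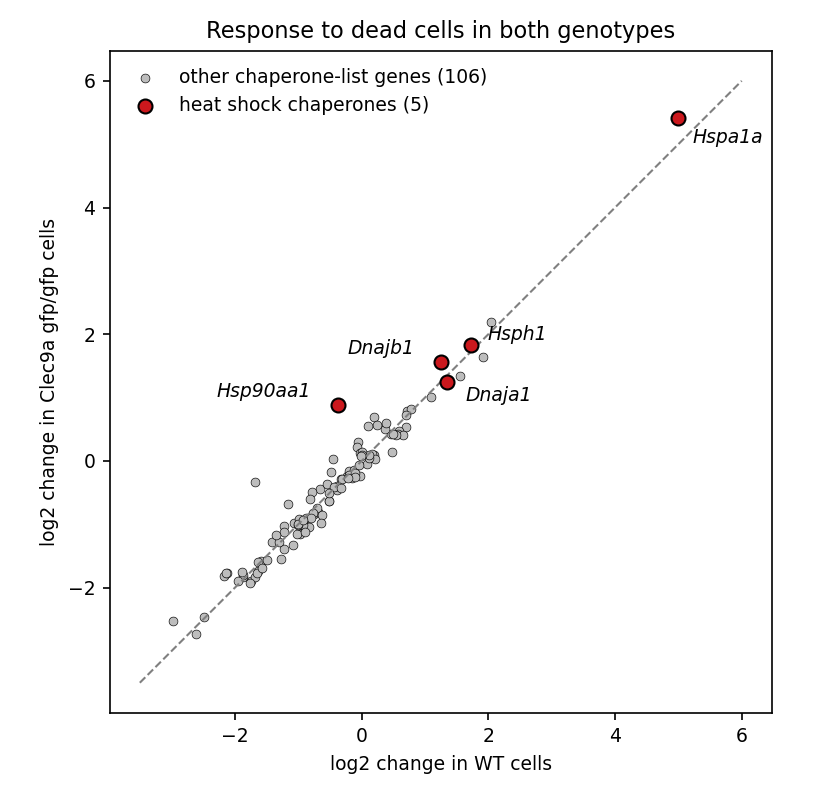
log2 change, dead cells minus untreated, of Clec9a gfp/gfp cells (y axis) against WT cells (x axis) for the 5 measured chaperones (red) and 106 other chaperone-list genes (grey); the dashed line marks equal change. Hspa1a stands at 4.99 and 5.41, and no gene shown was called for a difference in response.

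Array scaling moved the median of all rows by over 0.1. In WT it went from -0.04 to 0.10 under quantile normalization and to 0.17 when arrays were shifted to a common median. For Clec9a gfp/gfp it went from -0.05 to 0.10 and 0.19. The 106 network genes still had medians below 0, at -0.19 and -0.30 in WT and -0.13 and -0.21 in Clec9a gfp/gfp, but the split of calls changed. In WT it became 32 higher and 48 lower under quantile normalization and 24 and 53 after the shift, and the Clec9a gfp/gfp split was 33 and 43, then 28 and 51. Under quantile normalization 3 of the 58 WT fallers and 5 of the 58 Clec9a gfp/gfp fallers had a change above 0. The 4 rising chaperones stayed called higher under both scalings.

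Markers of other cell types also moved with treatment, and in bulk samples fewer cells of a type and less RNA per cell cannot be told apart. Their part in the chaperone changes was not tested. The summed intensity of 15 measured macrophage markers (of 18) was 16368 to 23752 in untreated WT cells and 4058 to 4665 with dead cells, and 18531 to 20183 and then 3801 to 4320 in Clec9a gfp/gfp. For all 14 stromal markers it went from between 10525 and 13452 to between 1887 and 3256 in WT, and from 10179 to 15428 to 2048 to 2642 in Clec9a gfp/gfp. For 11 of 14 neutrophil and mast cell markers it was 10750 to 17304 and then 1266 to 1286 in WT, and 4959 to 24031 and then 1366 to 1631 in Clec9a gfp/gfp. Most of that sum was S100a8, named after its values were seen, at 9685 ± 2707 in untreated WT and 9919 ± 9449 in untreated Clec9a gfp/gfp cells (SD, n = 3). Of the 11 markers, 8 fell in WT and 7 in Clec9a gfp/gfp. For 9 of 10 CD11b+ dendritic cell markers the sums were 4259 to 5981 and then 899 to 1073 in WT, and 5120 to 7153 and then 1056 to 1130 in Clec9a gfp/gfp. Of these 9, 3 rose and 6 fell in WT and 2 rose and 5 fell in Clec9a gfp/gfp. For 7 of 10 plasmacytoid markers the sum was higher with dead cells, at 3924 to 4132 against 2067 to 2358 in WT and at 4184 to 4242 against 2278 to 2674 in Clec9a gfp/gfp. Of these 7, 3 rose and 1 fell in WT and 3 rose and 2 fell in Clec9a gfp/gfp. For 9 of 12 B, T and NK cell markers the ranges were 529 to 1262 and 387 to 523 in WT and 727 to 1387 and 444 to 489 in Clec9a gfp/gfp. The 13 cDC1 markers summed to 56218 to 60013 and then 30349 to 32982 in WT, and to 51024 to 56640 and then 29088 to 29618 in Clec9a gfp/gfp. Of these 13, 1 rose and 9 fell in WT and 1 rose and 8 fell in Clec9a gfp/gfp. In each genotype 1 macrophage marker rose and 12 fell, and 0 stromal markers rose and 11 fell. These marker counts stand beside 14.5% of all rows higher and 31% lower in WT, and 16.6% and 32.1% in Clec9a gfp/gfp.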

How the data were processed

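The authors' deposited values are linear intensities for 23238 transcript cluster rows on each of 12 arrays, per the file headers and the values themselves. Per the submitters' processing notes, the build was mm8. How the authors corrected background, summarised probes and normalized is not stated in the sources used here. Per the labels' protocols, column-purified, DNase-treated RNA was depleted of ribosomal RNA and labelled by a whole-transcript sense protocol.

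Names came from the platform annotation (14939 rows with 1 symbol, 989 with several, 7310 with none). Of the single-symbol rows, 14884 matched RefSeq genes, and the brightest row stood for each of 131 genes with more than 1. Groups were taken from the labels. Intensities were converted to log2(intensity + 16), which understates the change of dim genes; 11.5% to 15.2% of rows per array lay below 16. A limma 3.58.1 fit covered the 12 arrays with a coefficient for each of the 4 groups (R 4.3.3, two-sided), with Benjamini-Hochberg adjustment over all rows. The fit was also run on simulated data in which few rows changed and array scale did not differ between treatments. Those settings are unlike these arrays, so that run says nothing about the effect of array scaling. Array number limits the precision, and permutations of 3 against 3 could not go below p = 0.1. No batch was given, and none could be tested. Promoter windows were searched in Python 3.11.15. The chaperones and all gene lists were chosen with earlier results of these data known. The named genes were all 10 chaperones, Clec9a, the 4 genes of each list with the smallest p in the WT response and the 3 nearest genes of each chaperone with a mean log2 value of at least 6; other names are stated as chosen afterwards. Alternatives were pseudocounts of 1 and 64, plain log2, quantile normalization, a shift to a common median, removal of the dimmest 25% of rows, trended robust eBayes, a replicate block, only the arrays compared, and leaving out each array.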

Additional observations from a re-analysis of the deposited data

Results flagged for a closer look

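A row carrying the symbols Hspa1l and Hspa1a was outside the comparisons because it names more than 1 gene, and it showed a signal above the untreated arrays. Hspa1l encodes a testis-enriched HSP70 that lies next to Hspa1a. The row read 26.3, 10.6 and 13.4 in untreated WT cells and 131, 88.3 and 80.6 with dead cells, and 17.4, 15.1 and 6.10 and then 72.7, 54.1 and 91.9 in Clec9a gfp/gfp cells. Every array with dead cells was above every untreated array, and the mean over the 6 arrays with dead cells was 5.84 times that over the 6 untreated arrays. The log2 change was 1.83 ± 0.24 in WT (limma adjusted p = 6.66e-05) and 1.62 ± 0.24 in Clec9a gfp/gfp (0.000167). These rises were smaller than the 4.99 and 5.41 of the row named Hspa1a, though the pseudocount understates the change of so dim a row. The ratios of mean intensities were 5.97 and 5.66, against 41.8 and 61.4 for the Hspa1a row. The size of the Hspa1a rise therefore rests on the Hspa1a row. Which of the genes gave the signal was not tested.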

How the results depend on the processing

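The 4 called chaperones kept their direction and their calls in both genotypes under every alternative run, with log2 changes in WT of 4.20 to 5.40 for Hspa1a, 1.60 to 2.15 for Hsph1, 1.11 to 1.66 for Dnajb1 and 1.04 to 1.79 for Dnaja1. The Clec9a gfp/gfp ranges, in the same order, were 4.48 to 5.94, 1.67 to 2.28, 1.45 to 1.99 and 0.95 to 1.67. Hsp90aa1 was removed with the dimmest 25% of rows, and no chaperone had a further row carrying its symbol alone. The row naming both Hspa1l and Hspa1a, given above, rose by less than the Hspa1a row. No chaperone was called between genotypes or in the difference in response under any alternative, and a fit on only the arrays compared gives no value for that difference. For genes named from lists, each value was paired with each alternative. Of these pairs 33 lost a call, 10 gained one and 2467 kept their status, and no called value turned direction. The lost calls were those of Cryab, Cd3g and Gzma in WT and of Hspb7, Cryab, Pacsin1 and Cd3e in Clec9a gfp/gfp. The gained calls were those of Hspb2, Hspb3, Hsf4 and Cd3e in WT. Among values that passed no test, Hsf3 changed sign in both genotypes and Gzma in Clec9a gfp/gfp cells, reaching 0.18, 0.17 and 0.14 after the shift to a common median.

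List counts depended mainly on array scaling, and the cause was not tested. Under quantile normalization the number higher in WT became 32 over all lists, 2 for exchange factors, 9 for J-domain proteins, 5 for HSP90 partners, 5 for small heat shock proteins, 2 for mitochondrial genes, 2 for heat shock factors and 4 for HSF1 targets. The Clec9a gfp/gfp number became 33, with 8 J-domain, 6 HSP90, 5 small, 2 mitochondrial and 6 HSF1 target genes. The number lower became 0 for small heat shock proteins in both genotypes and 10 for J-domain proteins in Clec9a gfp/gfp. After the shift to a common median the number higher in WT was 24 over all lists, with 3 exchange factors, 7 J-domain, 3 small, 2 heat shock factor and 4 HSF1 target genes. For Clec9a gfp/gfp it was 28, with 10 J-domain, 4 small and 2 mitochondrial genes, and 1 small heat shock protein was lower. With only the arrays compared, small heat shock proteins in Clec9a gfp/gfp had 1 higher and 1 lower.

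Leaving out 1 array moved the small heat shock proteins between 1 and 2 higher and 1 and 2 lower in each genotype. In WT the higher count was 2 without WT dead cells replicate 2 or Clec9a gfp/gfp untreated replicate 1, and the lower count was 2 without Clec9a gfp/gfp dead cells replicate 3. In Clec9a gfp/gfp the higher count was 1 without its untreated replicate 2 or 3 or its dead cells replicate 1 or 3. The lower count was 1 without its untreated replicate 1 or 2, its dead cells replicate 1 or 3 or WT untreated replicate 2. Replicate numbers did not pair the arrays: deviations of same-numbered arrays correlated at -0.16 to 0.13 over 18 pairs. With the replicate block, Hspa1a changed by 4.99 in WT (limma adjusted p = 1.88e-07) and no call was lost. The number of arrays, 3 per group, and intensities below 16 limit what could be detected.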

Other observations

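Bag5, an exchange factor that was not among the genes named by rule and was chosen after its values were seen, read 237 ± 33.6 in untreated WT cells and 66.3 ± 32.4 with dead cells (SD, n = 3). Its log2 change was -1.68 in WT (limma adjusted p = 0.000185) and -0.33 in Clec9a gfp/gfp (0.312). The difference in response of 1.35, with a 95% interval from 0.56 to 2.14, was the largest among the 106 chaperone-list genes measured and was not called (unadjusted p = 0.00336, adjusted p = 0.999).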
